A study of Sus scrofa with 8 samples.

Results

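Large or regulatory cytoskeletal transcripts were followed through m6A peak lists of pig muscle: DST, AHNAK, SPTB, SSH2 and MAP1B. They are 5 of the 5650 genes with a peak in any list and were taken by gene symbol. The group was chosen by measured values of these lists, namely their numbers of peaks and the animals in which they were called, so those numbers are given below as a description and without a test. The study set pigs of the Chinese Jinhua breed, which per the labels stores more fat within muscle, against the Danish Landrace, with 2 males of 180 days per breed. From muscle of each animal 1 library was made after m6A immunoprecipitation and 1 from input RNA, 8 libraries in all, and the authors deposited 1 peak list per animal. A peak is a stretch of a transcript listed as enriched by the m6A antibody, and a gene counts as called where its animal's list holds at least 1 peak for it.

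N6-methyladenosine (m6A) is a methyl mark on adenosines within messenger RNA, placed by the METTL3 and METTL14 complex and read by proteins such as the YTHDF family. It is known to gather near stop codons, in 3′ UTRs and in long internal exons. The genes described here encode proteins that tie the cytoskeleton of a cell together: DST (dystonin) is a plakin that links actin, intermediate filaments and microtubules, AHNAK is a giant scaffold under the plasma membrane, and SPTB is the beta-spectrin of the red cell membrane skeleton, also found under the muscle fibre membrane. SSH2 is a slingshot phosphatase that activates the actin-severing protein cofilin, and MAP1B is a microtubule-associated protein best known from growing neurons.

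The lists held 6433 and 7733 peaks in the Jinhua animals and 6471 and 6176 in the Landrace animals. Strength of enrichment and read numbers are not listed, so the depth behind a peak is unknown, and a gene without a peak may be unmethylated, weakly expressed or below the caller's threshold. In bulk muscle fewer cells of a type and less RNA per cell cannot be told apart. Of 12 skeletal muscle marker genes 10 were called, all of them in all 4 lists. Of 6 fibroblast markers 5 were called, 2 of them in all 4 lists, and of 6 adipocyte markers 3 were called, 2 of them in all 4 lists. The lists of Jinhua 2 and Landrace 1 stand apart in format: they give at most 4 positions per gene, not in transcript order, so 33 of 49 and 18 of 37 peaks of these genes have a number but no place. A full comparison along the transcripts was therefore possible only between Jinhua 1 and Landrace 2.

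DST, AHNAK, SPTB and SSH2 were called in all 4 animals, as were 43.8% of all called genes, and MAP1B was called in the Landrace animals only. Together the genes carried 39 and 49 peaks in Jinhua animals and 37 and 39 in the Landrace animals, a mean of 44.0 ± 7.07 against 38.0 ± 1.41 (SD, n = 2 each). The Jinhua 2 list accounts for the spread, and Jinhua 1 equalled Landrace 2. As a share of each list these peaks were 0.606% and 0.634% in Jinhua and 0.572% and 0.631% in Landrace, ranges that overlap. The breeds did not overlap in the number of peaks for AHNAK and SSH2, higher in Jinhua, and for MAP1B, higher in Landrace. Over all called genes 9.36% were higher in Jinhua without overlap and 4.85% higher in Landrace. Among the 68 genes with a mean of 5 or more peaks the shares were 23.5% and 8.82%. Since the genes were chosen by the same numbers, nothing is read from these counts.

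**Figure D1:**
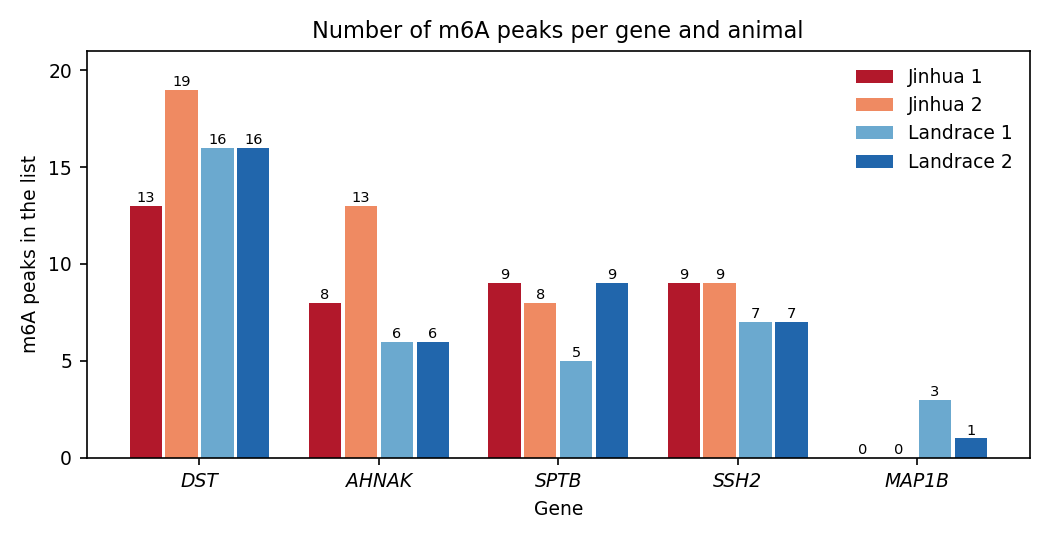
Number of m6A peaks in the list (vertical axis) for DST, AHNAK, SPTB, SSH2 and MAP1B, with 1 bar per animal and Jinhua left of Landrace. DST lies between 13 and 19 peaks in every animal, and MAP1B is at 0 in both Jinhua animals.

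DST had the most peaks of any gene identifier in the lists. Counted by symbol, NEB (nebulin) lay above it, with 18 and 21 peaks in Jinhua and 18 and 16 in Landrace summed over 2 identifiers. It carried 13 and 19 peaks in the Jinhua animals and 16 and 16 in the Landrace animals, with means of 16 ± 4.24 and 16 ± 0 (SD, n = 2 each). The Jinhua animals were the lowest and the highest, the Landrace animals lay between them, and the next highest mean of any single identifier was 12.2. Per 1000 peaks of its list DST took 2.02 and 2.46 in Jinhua and 2.47 and 2.59 in Landrace. On this scale both Jinhua animals were below both Landrace animals, though Jinhua 2 only narrowly. How many of all genes part on this scale was not counted, so nothing is read from it. All 35 DST peaks with a listed location were annotated to coding sequence, and listed peaks ran from base 1285 to base 22340 of transcript ENSSSCT00000001671. Up to the furthest listed base there were 0.582 and 0.850 peaks per kilobase in Jinhua and 0.716 and 0.716 in Landrace.

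The DST peaks of Jinhua 1 formed 13 separate stretches covering 2730 bases, 12.2% of the transcript up to the furthest listed base, and those of Landrace 2 formed 15 stretches covering 3197 bases, 14.3%. Gaps between stretches ran from 78 to 3188 bases in Jinhua 1, with a median of 635.5, and from 47 to 3216 in Landrace 2, with a median of 1021.5. Much of the pattern was common to both animals. Of the Jinhua 1 peaks 10 of 13 overlapped a Landrace 2 peak, and 11 of the 16 Landrace 2 peaks overlapped a Jinhua 1 peak. One peak, at bases 14938 to 15193, had the same start and end in both.

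A pair of DST sites was listed in every animal. The first was at bases 7363 to 7628 and 7280 to 7674 in the Jinhua animals and 7344 to 7659 and 7301 to 7724 in the Landrace animals. The other was at bases 20810 to 20997 and 20794 to 21017 in Jinhua and 20804 to 20920 and 20806 to 21018 in Landrace. Other sites were listed in 1 breed. A peak at bases 8166 to 8321 in Jinhua 1 and 8167 to 8321 in Jinhua 2 had no counterpart in Landrace 2. A peak at bases 20001 to 20178 in Landrace 1 and 20021 to 20180 in Landrace 2 had none in Jinhua 1. Jinhua 2 has 15 DST peaks without a position and Landrace 1 has 12, so for the remaining animal of the other breed neither site can be called empty. The site near base 1287 crossed the breeds, listed at 1285 to 1440 in Jinhua 2 and at 1287 to 1434 in Landrace 2 but absent from Jinhua 1.

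**Figure D2:**
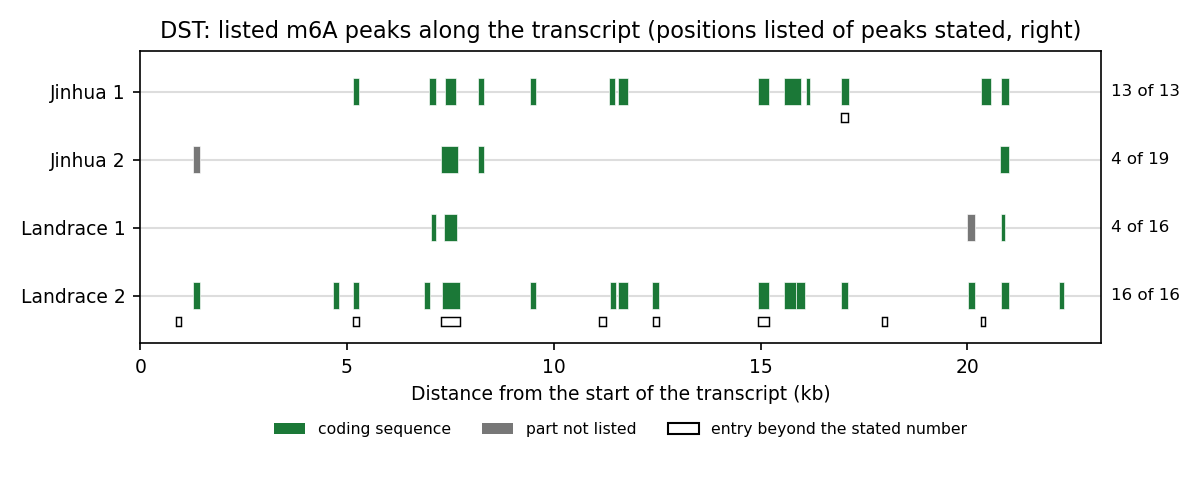
Listed m6A peaks along the DST transcript, with distance from the transcript start in kilobases on the horizontal axis, 1 row per animal, Jinhua above Landrace, and open boxes for entries beyond the stated number. All peaks are placed for Jinhua 1 and Landrace 2, while 15 peaks of Jinhua 2 and 12 of Landrace 1 have no position and are missing from their rows.

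AHNAK carried more peaks in both Jinhua animals than in either Landrace animal. It had 8 and 13 peaks in Jinhua and 6 and 6 in Landrace, means of 10.5 ± 3.54 and 6.0 ± 0 (SD, n = 2 each) and a difference of 4.50. The difference was 2.0 without Jinhua 2 and 7.0 without Jinhua 1, so its size rests on which Jinhua animal is used. Per 1000 peaks of the list AHNAK took 1.24 and 1.68 in Jinhua and 0.927 and 0.972 in Landrace, again without overlap. The share of all genes without overlap on this scale was not counted, so nothing is read from it. Its mean over the 4 animals, 8.25, ranked at place 8 of all called identifiers.

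Most AHNAK peaks lay in what the lists annotate as 3′ UTR of transcript ENSSSCT00000029753. Of the 20 peaks with a location, 16 were in 3′ UTR, at bases 4201 to 8126, and 4 in coding sequence, at bases 436 to 3339. In human the AHNAK coding sequence is longer than this whole stretch, so the label belongs to the pig transcript model used in the lists. In Jinhua 1 the split was 2 coding and 6 3′ UTR peaks, and in Landrace 2 it was 1 and 5. The site listed in all 4 animals was at bases 4201 to 4400 and 4201 to 4387 in the Jinhua animals and 4241 to 4370 and 4221 to 4360 in the Landrace animals. The peaks of Jinhua 1 covered 1392 bases, or 17.1%, and those of Landrace 2 covered 900 bases, or 11.1%. Neighbouring stretches were a median of 923 bases apart in Jinhua 1 and 881 in Landrace 2. The sets were nested in part: 5 of 8 Jinhua 1 peaks overlapped a Landrace 2 peak, and 5 of 6 Landrace 2 peaks overlapped a Jinhua 1 peak.

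The 3 Jinhua 1 peaks of AHNAK without overlap in Landrace 2 were at bases 436 to 604, 2461 to 2640 and 4581 to 4770. The first had identical bounds in Jinhua 2 and was not among the listed positions of Landrace 1, where 2 AHNAK peaks have no position. The last was also listed in Landrace 1, at 4621 to 4740, and so was not parted by breed. The coding peak of Landrace 2, at bases 3182 to 3339, was absent from Jinhua 1 but present in Jinhua 2 at 3185 to 3341.

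SPTB showed 9 and 8 peaks in Jinhua animals, against 5 and 9 in the Landrace animals, means of 8.50 ± 0.707 and 7.0 ± 2.83 (SD, n = 2 each). The ranges overlapped and only Landrace 1 was low. Without Landrace 1 the difference of 1.5 turned to -0.50. Per 1000 peaks of the list SPTB took 1.40 and 1.03 in Jinhua and 0.773 and 1.46 in Landrace. SPTB is also a defining gene of red cells. Of 6 erythroid markers 1, the beta-globin gene HBB, was called, with 1 peak in each animal of both breeds, while ALAS2, SLC4A1 and EPB42 had none in any list. Their part in the SPTB peaks was not tested.

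On transcript ENSSSCT00000002535 the SPTB peaks fell in 2 blocks by annotation, 18 in coding sequence at bases 2161 to 7305 and 6 in 3′ UTR at bases 7795 to 10140. Jinhua 1 and Landrace 2 each had 7 coding and 2 3′ UTR peaks, and 7 of 9 in each overlapped a peak of the other animal. The covered length was 1556 bases, 15.3%, in Jinhua 1 and 1480 bases, 14.6%, in Landrace 2. Gaps between stretches had a median of 606 bases in Jinhua 1 and 435.5 in Landrace 2, and the largest gap, which precedes the last 3′ UTR peak, was 2015 bases in Jinhua 1 and 2001 in Landrace 2. The last site of the transcript was listed in every animal, at bases 9983 to 10140 and 9980 to 10135 in Jinhua and 9971 to 10128 in both Landrace animals. The peaks without a counterpart were those at 2403 to 2582 and 5181 to 5320 in Jinhua 1, and at 2281 to 2390 and 3121 to 3260 in Landrace 2. The site at 2281 to 2390 was also listed in Jinhua 2, at 2161 to 2390.

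SSH2, the cofilin phosphatase, reached 9 and 9 peaks in Jinhua animals, against 7 and 7 in the Landrace animals, so the animals of a breed were equal and the breeds did not overlap. Per 1000 peaks of the list the values were 1.40 and 1.16 in Jinhua and 1.08 and 1.13 in Landrace. On that scale the breeds parted only narrowly, with 1.16 in Jinhua 2 against 1.13 in Landrace 2, and the means differed by 0.174. How many of all genes part on that scale was not counted, so nothing is read from it. Per kilobase up to the furthest listed base it had 1.47 and 1.47 peaks in Jinhua and 1.14 and 1.14 in Landrace, the highest of the 5 genes in all animals but Jinhua 2, where AHNAK had 1.60. Its peaks covered 1818 bases in Jinhua 1, 29.6% of transcript ENSSSCT00000033840 up to the furthest listed base, and 1436 bases in Landrace 2, 23.4%.

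All 22 SSH2 peaks with a location carried the annotation UTR without a side, which is rare in the lists. This annotation was given to 35 and 56 peaks in the Jinhua animals and 42 and 43 in the Landrace animals, of which SSH2 held 9 and 3 in Jinhua and 3 and 7 in Landrace. In the lists with all locations no other gene had more than 2 in Jinhua 1 or 3 in Landrace 2. The lists of Jinhua 2 and Landrace 1 give at most 3 locations per gene, and there another gene equalled SSH2. Whether the SSH2 sites are in coding sequence can therefore not be read from the lists. The Jinhua 1 peaks at bases 1512 to 1670 and 5981 to 6135 had no counterpart in Landrace 2, while all 7 Landrace 2 peaks overlapped a Jinhua 1 peak. The site at 5981 to 6135 was listed in Landrace 1, at 6021 to 6121.

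Part of the SSH2 number comes from peaks that touch end to end. In Jinhua 1 the peak at 2264 to 2446 was followed directly by 2447 to 2866, and 2928 to 3169 by 3170 to 3339. In Jinhua 2 the peak at 2950 to 3169 was followed by 3170 to 3372, and in Landrace 2 the peak at 2920 to 3164 by 3165 to 3362. Such adjoining peaks made up 4 of 9 SSH2 peaks in Jinhua 1 and 2 of 7 in Landrace 2, against 7.85% and 8.99% of all peaks in these lists. All peaks include the lone peaks of genes, which cannot adjoin another, and the share among many-peak genes was not computed. Joined, the SSH2 peaks of Jinhua 1 formed 7 stretches and those of Landrace 2 formed 6. The difference between these animals was thus 1 stretch where it was 2 peaks. The site at 3661 to 3824 and 3654 to 3815 in the Jinhua animals and 3663 to 3816 and 3665 to 3829 in the Landrace animals was listed in every animal, as was the region spanning bases 2919 to 3372. Gaps between SSH2 stretches had a median of 215 bases in Jinhua 1 and 95 in Landrace 2, the shortest of the genes with several stretches in these lists.

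**Figure D3:**
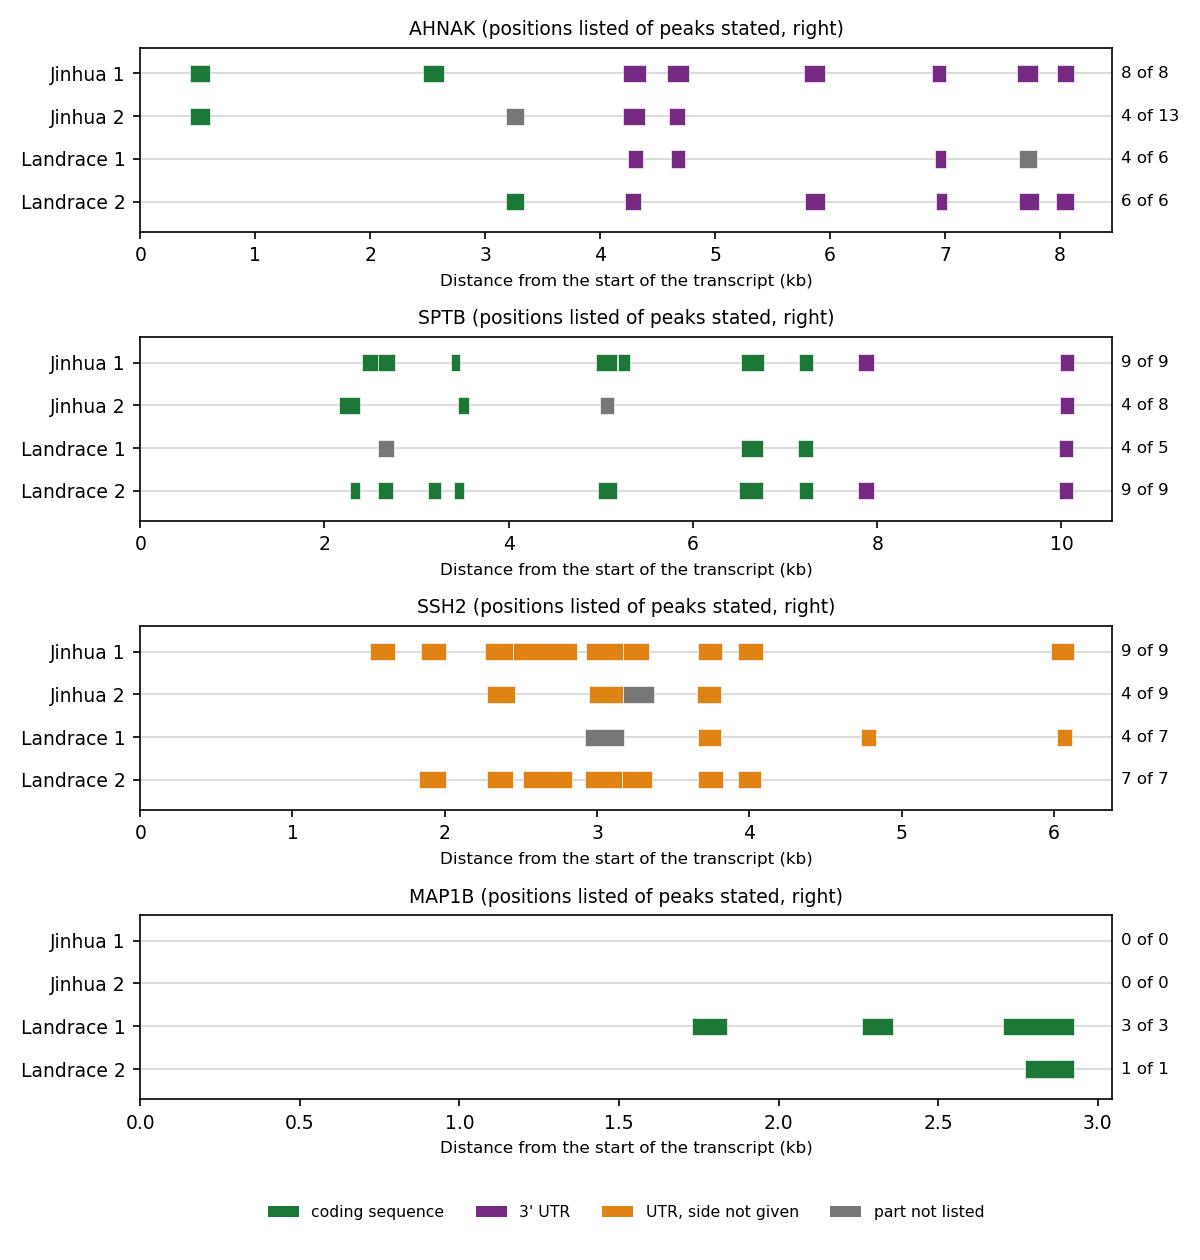
Listed m6A peaks along the AHNAK, SPTB, SSH2 and MAP1B transcripts, with distance from the transcript start in kilobases on the horizontal axes, location by colour and 1 row per animal, Jinhua above Landrace. Sites near the end of SPTB and near base 3661 of SSH2 appear in every row, and the MAP1B rows of both Jinhua animals are empty.

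MAP1B was the sparse gene of the group. Its peaks numbered 0 and 0 in Jinhua animals, against 3 and 1 in the Landrace animals, a mean of 2.0 ± 1.41 in Landrace (SD, n = 2). Its call in both Landrace animals and neither Jinhua animal is one that 2.42% of all called genes share. The opposite call, in both Jinhua animals and neither Landrace animal, was made for 5.15%. All its peaks were in coding sequence of transcript ENSSSCT00000018484, at bases 1729 to 1840, 2261 to 2360 and 2702 to 2927 in Landrace 1 and at 2771 to 2926 in Landrace 2. Both animals thus shared 1 site, and the rest were in Landrace 1 alone. Positions are complete for this gene in every list.

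Nerve and Schwann cell markers, which could come with intramuscular nerve, were read beside MAP1B. Of 8 such genes, 3 and 1 were called in the Jinhua animals and 4 and 1 in the Landrace animals, with 4 and 1 peaks in Jinhua and 5 and 1 in Landrace. Landrace 1, with the most MAP1B peaks, also had the most of these, but Jinhua 1 had 4 peaks in them and none in MAP1B. The neurofilament gene NEFL had no peak in any list. Their part in the MAP1B call was not tested.

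Over the 5 transcripts the peaks of all lists merged into 47 regions. Of these 6 were listed in all 4 animals, 10 in 3, 20 in 2 and 11 in 1, counts that are lower bounds on sharing because of the peaks without a position. As listed, 2 regions were in both Jinhua animals and neither Landrace animal, the DST site near base 8166 and the AHNAK site at 436 to 604. Another 2 were in both Landrace animals and neither Jinhua animal, the DST site near base 20001 and the last MAP1B site.

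Between the complete lists, 29 of 39 peaks of these genes in Jinhua 1 overlapped a Landrace 2 peak, 74.4%, against 67.0% of all Jinhua 1 peaks. In the other direction 30 of 39 Landrace 2 peaks overlapped a Jinhua 1 peak, 76.9%, against 71.0% of all Landrace 2 peaks. Overlapping peaks were placed closely, with a median difference of 10 bases between starts and 8.0 bases between ends. The listed positions of the shortened lists behaved much the same. Of 16 listed in Jinhua 2, 13 overlapped Jinhua 1 and 13 overlapped Landrace 2, 81.2% each, against 62.3% and 57.1% of all listed Jinhua 2 peaks. Of 19 listed in Landrace 1, 14 overlapped Jinhua 1, 73.7% against 67.8% of all, and 13 overlapped Landrace 2, 68.4% against 68.3% of all. The genes were chosen in part by the animals in which they were called. The shares over all peaks include genes with no peak in the other list, so higher shares here are partly built in. In these few counts from the shortened lists, sharing of these sites was no higher within a breed than between breeds. Jinhua 2 was not set against Landrace 1, and nothing about breed is read from this.

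The width of the peaks had no part in choosing the genes. Mean width was 192.2 and 188.2 bases in the Jinhua animals and 158.9 and 183.8 in the Landrace animals, so both Jinhua animals were above both Landrace animals. The means rest on all 39 peaks in Jinhua 1 and in Landrace 2. Those of Jinhua 2 and Landrace 1 rest on 16 of 49 and 19 of 37, at most 4 per gene. MAP1B peaks, 3 in Landrace 1 and 1 in Landrace 2, entered the Landrace means only. The breed means were 190.2 ± 2.80 and 171.4 ± 17.6 bases (SD, n = 2 each), a difference of 18.9 with a two-sided exact permutation p of 0.33, the smallest that 2 against 2 allows. Landrace 1 was the low animal, and without it the difference was 6.41 bases. Peaks of all genes averaged 165.7 and 162 bases in Jinhua and 158.8 and 160.2 in Landrace.

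By location, DST and MAP1B were coding throughout, AHNAK and SPTB were split between coding sequence and 3′ UTR, and SSH2 had no coding annotation. Of peaks with a location, 22 of 39 in Jinhua 1 and 6 of 12 in Jinhua 2 were in coding sequence, 56.4% and 50.0%, against 8 of 15 in Landrace 1 and 25 of 39 in Landrace 2, 53.3% and 64.1%. The exact binomial 95% intervals had bounds of 39.6% and 72.2% in Jinhua 1 and of 47.2% and 78.8% in Landrace 2. They treat each peak as independent, although peaks of DST, SSH2 and MAP1B share 1 label per gene. They do not measure the spread between animals, and no likeness or difference of the breeds is read from them. Pooled over the 4 lists the share was 58.1%. No peak with a location carried the label 5′ UTR, but the side of the SSH2 peaks labelled UTR is not given. Over all genes the coding share was 68.8% and 71.2% in Jinhua and 70.2% and 71.3% in Landrace. No difference from all genes is read from this. The shares of the 5 genes rest on the SSH2 label and on the 3′ UTR of the pig AHNAK transcript model.

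Density was also set beside that of other genes with 5 or more peaks, as a description. With this minimum a gene whose peaks span a short stretch cannot have a low density. A low rank of a long transcript is therefore partly built in. Among 100 genes with 5 or more peaks in Jinhua 1, with a median of 1.28 peaks per kilobase up to the furthest listed base, 2 were sparser than DST, 14 than SPTB, 23 than AHNAK and 67 than SSH2. Among such genes in Landrace 2, with a median of 1.35, 6.67% were sparser than DST, 7.62% than AHNAK, 16.2% than SPTB and 36.2% than SSH2. DST thus had many peaks at low density among these genes in both animals, and nothing is read from its rank.

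**Figure D4:**
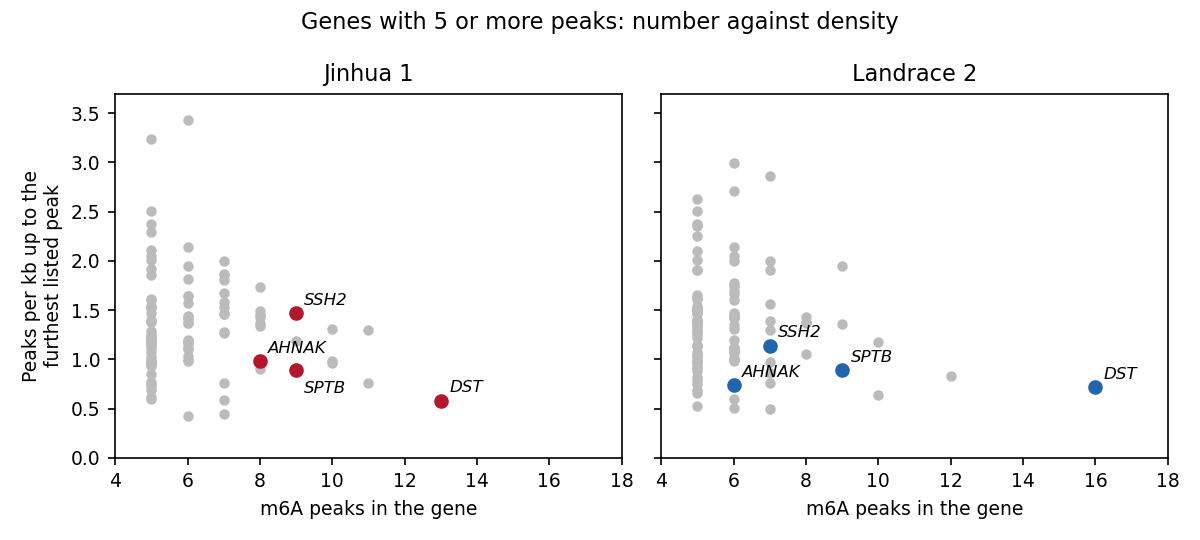
Peaks per kilobase up to the furthest listed base (vertical axis) against the number of peaks (horizontal axis) for genes with 5 or more peaks in Jinhua 1 (left) and Landrace 2 (right), 1 point per gene. DST lies at the far right of both panels, at 0.582 and 0.716 peaks per kilobase, below the medians of 1.28 and 1.35.

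The genes nearest in numbers of peaks over the 4 lists were taken, per identifier, by the smallest sum of absolute differences. For DST these were RYR1, the calcium release channel, at a distance of 15 peaks, SRRM2, a splicing factor, at 22, and 1 of the NEB identifiers, with 10 and 12 peaks in Jinhua and 9 and 8 in Landrace, at 25. For AHNAK they were HSPG2, TTN and SSH2, at 5, 5 and 7. HSPG2 (perlecan), with 8 and 10 peaks in Jinhua and 5 and 5 in Landrace, parted the breeds in the same way, as did TTN (titin), with 8 and 9 in Jinhua and 7 and 6 in Landrace. Both were taken for numbers like those of AHNAK, so nothing is read from this likeness. TTN and MYH7, with 3 and 4 peaks in Jinhua and 1 and 1 in Landrace, were the 2 of 10 called skeletal muscle markers that were higher in Jinhua without overlap. None of these markers was higher in Landrace, and over all called genes the shares were 9.36% and 4.85%. Over all these markers the peaks summed to 54 and 67 in Jinhua and 53 and 50 in Landrace, and their part in the AHNAK and SSH2 numbers was not tested. For SPTB they were CACNA1S, PRRC2A and SVIL, each at 4, and for SSH2 they were TTN at 2, CACNA1S at 3 and the other NEB identifier, with 8 and 9 peaks in Jinhua and 9 and 8 in Landrace, at 4. For MAP1B, CSRNP1, JARID2 and TMEM132A had the same numbers in every list.

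The members were chosen by their peaks, so no contrast is drawn with the other genes of the same cytoskeletal systems, which are given for their own values. Of 56 listed, 29 were called in any animal and 15 in all 4, which is 51.7% of those called, and their median of mean peaks, 1.0, was that of all called genes. Called genes numbered 21 and 25 in the Jinhua animals and 21 and 19 in the Landrace animals, beside 3863 and 4468 of all genes in Jinhua and 3798 and 3647 in Landrace. Called in both Jinhua animals and neither Landrace animal were 3: EPB41, DMD and MAPRE2. None had the opposite pattern. Over all called genes these patterns were at 5.15% and 2.42%, and Jinhua 2, the longest list, was the one with the most genes of this list.

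Among the plakins, which share the linker role of DST, 2 of 6 were called. MACF1, the closest relative of DST, had 3 and 5 peaks in Jinhua and 5 and 2 in Landrace, and PPL (periplakin) had 1 and 3 in Jinhua and 3 and 6 in Landrace. Both overlapped between breeds. Of 16 spectrin-skeleton genes 7 were called. SPTAN1, the non-erythroid alpha-spectrin, had 4 and 8 peaks in Jinhua and 5 and 9 in Landrace, and ADD1 (adducin), which caps actin at the spectrin network, had 4 and 4 in Jinhua and 5 and 4 in Landrace. ANK1, the ankyrin that anchors beta-spectrin to membrane proteins, had 3 and 3 peaks in Jinhua and 2 and 2 in Landrace. All were in 3′ UTR. The third Jinhua peak came from adjoining ones, 6007 to 6188 with 6189 to 6375 in Jinhua 1 and 6000 to 6209 with 6210 to 6375 in Jinhua 2, where both Landrace animals had 6213 to 6375. EPB41, which joins spectrin to actin, had 1 and 2 peaks in Jinhua and 0 and 0 in Landrace.

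In the dystrophin group, which ties actin to the muscle membrane, DMD had 1 and 1 peaks in Jinhua and 0 and 0 in Landrace. DTNA (dystrobrevin) had 0 and 1 in Jinhua and 0 and 0 in Landrace. The DMD sites differed, at 2571 to 2710 in Jinhua 1 and 1581 to 1746 in Jinhua 2. Among partners of AHNAK, DYSF, the membrane repair protein dysferlin, had 4 and 6 peaks in Jinhua and 3 and 6 in Landrace, and S100A10 had 1 in every animal. ANXA2 had 0 and 1 in Jinhua and 1 and 0 in Landrace. All of these partners overlapped between breeds.

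Of 13 genes around slingshot and cofilin, 8 were called. LIMK1, the kinase that inactivates cofilin, had 3 and 3 peaks in Jinhua and 2 and 3 in Landrace, and CFL1, cofilin itself, had 2 and 2 in Jinhua and 2 and 1 in Landrace. CAP2, which recycles cofilin-bound actin, had 2 and 2 in Jinhua and 2 and 0 in Landrace, and SSH1, the paralog of SSH2, had 1 and 1 in Jinhua and 1 and 3 in Landrace. All 4 overlapped between breeds. Of 12 microtubule-associated genes 7 were called. MAPT (tau) had 5 and 6 peaks in Jinhua and 7 and 5 in Landrace, and MAP4 had 5 and 3 in both breeds over 2 identifiers. MAP1S, of the same family as MAP1B, had 0 and 1 in Jinhua and 2 and 1 in Landrace, and MAPRE3, an end-binding protein, had 1 in every animal. MAPRE2, of the same end-binding family, had 1 and 1 in Jinhua and 0 and 0 in Landrace, at bases 360 to 514 in Jinhua 1 and 360 to 513 in Jinhua 2.

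**Figure D5:**
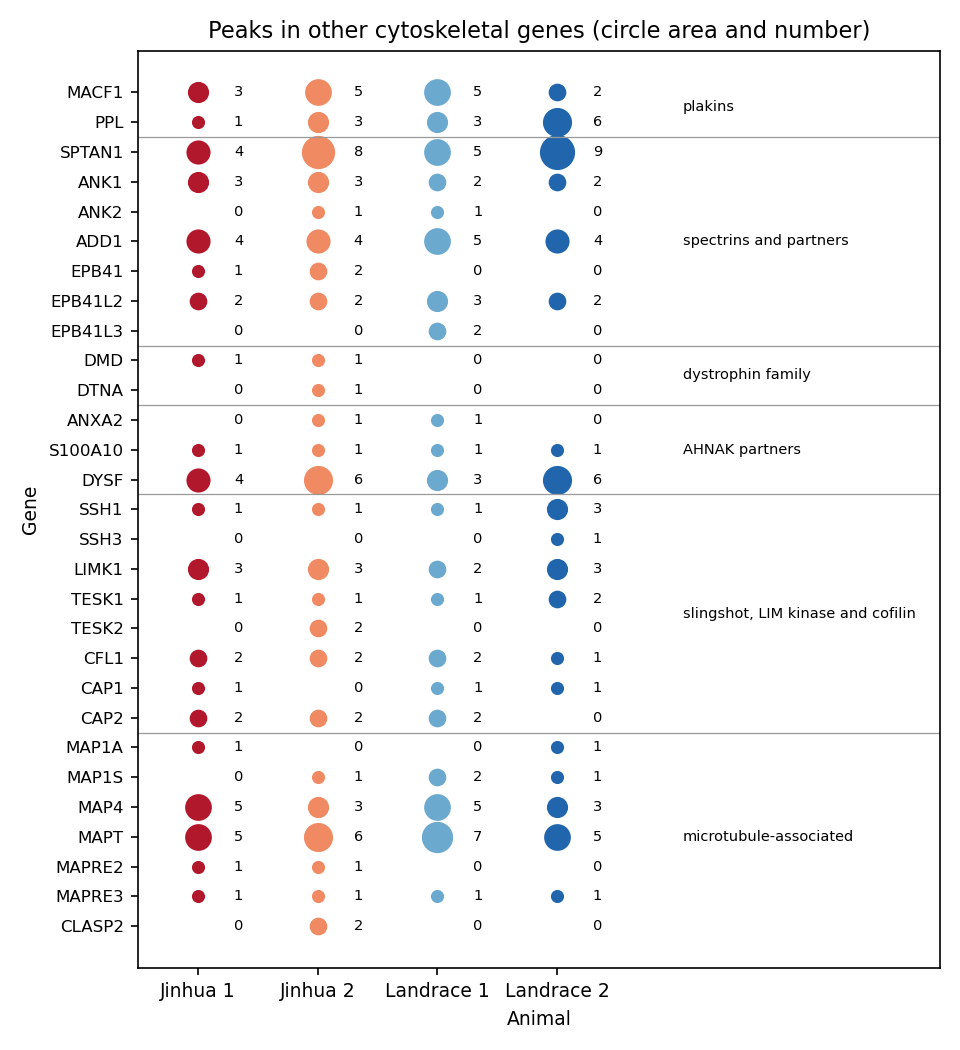
Number of m6A peaks per animal in the called genes of the other cytoskeletal list, as the printed number and as circle area, 1 row per gene, with Jinhua animals left of Landrace animals. EPB41, DMD and MAPRE2 have peaks in both Jinhua animals and 0 in both Landrace animals.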

How the data were processed

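Muscle RNA of 2 Jinhua and 2 Landrace males was studied with an IP and an input library each. Per the labels' protocols, mRNA purified on Dynabeads was sonicated and precipitated with an m6A antibody, and libraries were stranded. TopHat2 2.0.14 is the aligner, and Sscrofa10.2 or susScr3 the genome, that stand in the submitters' processing notes. Which program called the peaks, at what threshold and on which annotation is not given in the sources used here. Per the file headers, the authors deposited for each animal the number of peaks per gene, a transcript, and starts, ends and locations on it, with no score or other strength. Positions are bases of the transcript, counted from 1. No genome or sequences of this build were used. The symbols are those of the lists, and the name table held 3 of the 5 identifiers.

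Members and gene lists were chosen with earlier results of these data known. A gene was called with 1 or more peaks. Peaks of a transcript that overlapped by 1 base or adjoined were merged into regions. Entries beyond the stated number were left out. Density is peaks divided by the furthest base listed in any animal. Breeds were compared over animals, and width alone was tested, with an exact permutation test. With the replicate number as a block, an exact sign-flip test of width was run as an alternative. Named genes were the members, up to 3 called genes with the most peaks and every breed-only gene of each sub-list, and the 3 nearest genes to each member. Where genes tied for the last place (CAP2 with SSH1, MAP1S with MAPRE3), both are given. The nearest genes were sought among the 4989 with a symbol. Alternatives were each animal left out, the replicate block, peaks per 1000, a 2-peak call, a 150-base minimum width, joining within 100 bases, an overlap of at least 0.5 of the shorter peak, the first listed positions and, chosen after seeing the data, 2 more on Jinhua 1 against Landrace 2. Scripts ran in Python 3.11.15 with NumPy 2.4.6, SciPy 1.17.1 and Matplotlib 3.10.9, and were checked on simulated lists. The replicates are separate males, and 2 per breed limit every comparison.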

Additional observations from a re-analysis of the deposited data

Results flagged for a closer look

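DST carried entries beyond the number of peaks its row states, data that the comparisons above do not use: 1 in Jinhua 1 and 8 in Landrace 2. The Jinhua 1 entry, at bases 16935 to 17110, overlapped a peak of the same list. Of the Landrace 2 entries 4 overlapped peaks of that list. The entry at bases 20321 to 20420 overlapped only a Jinhua 1 peak, at 20319 to 20570, that was otherwise without counterpart in Landrace 2. The other 3, at 873 to 980, 11082 to 11256 and 17941 to 18060, overlapped no listed peak. Over all genes Jinhua 1 had 1 such entry and Landrace 2 had 10. No group held enough animals for a check of single outlying animals.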

How the results depend on the processing

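Of 81 recomputed values 8 moved past the limits set for a count or a spread and 1 reversed. DST, with a difference of 0, took both signs when a Jinhua animal was left out, 3.0 without Jinhua 1 and -3.0 without Jinhua 2, and MAP1B, at -2.0, ran from -3.0 to -1.0. The SPTB difference, 1.5, was -0.50 without Landrace 1 and 3.50 without Landrace 2. Per 1000 peaks the SSH2 difference was 0.174, which is among the values that moved. With animals left out in turn, the summed difference of 6.0 peaks ran from 1.0 to 11, the width difference of 18.9 from 6.41 to 31.3, and the pooled coding share from 54.5 to 59.1%. With animals left out, regions in all lists, 6, ran from 6 to 12, those of both Jinhua animals, 2, from 2 to 6, and those of both Landrace animals, 2, from 2 to 7. By construction, fewer lists then have to agree. Other settings went beyond these ranges. With peaks of 150 bases or more, regions in all lists fell to 4, while those of both Jinhua animals were 3 and those of both Landrace animals 2. With the first 3 listed peaks per gene the pooled coding share was 51.9%. The 4 genes called in all animals stayed at 4. With a call at 2 or more peaks, 9 other cytoskeletal genes were called in all animals, against 15, and leaving out animals gave 15 to 16. With entries beyond the stated number the summed difference was 2.50. With the replicate number as a block, which the labels do not give as a pairing of animals, the summed difference stayed at 6.0 and the width difference at 18.9, with an exact sign-flip p of 0.50, the smallest possible. Overlaps of Jinhua 1 with Landrace 2, 29, were 28 under the stricter overlap and 31 with the extra entries, both chosen after seeing the data. A stricter peak threshold was not run, since the lists hold no strength, nor was a comparison up to the last listed peak, since positions are not in order.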
